A study of Arabidopsis thaliana with 27 samples.

Results

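Of the 21509 Arabidopsis thaliana genes that could be compared on the arrays, 0.497% met the rule given below. Their mean signal was lower on NaCl and higher on sorbitol than on the control medium. These members were 62 genes that were well above background on every array and 45 genes that were not. The genes were chosen from the measured values themselves. The mean of the 4 NaCl differences had to be -0.4 or lower and the mean of the 4 sorbitol differences 0.4 or higher, on the log2 scale of normalized intensity and relative to the control. Each gene was represented by its brightest probe, and at least 1 group had to have all 3 of its arrays well above background for that probe. For scale, 2675 genes met the NaCl condition, 2738 met the sorbitol condition, and 151 genes had the opposite pattern at the same thresholds. All levels and differences relative to the control are therefore given as a description, with no test, and tests were kept to the steps between doses of an agent and to the difference between such steps. The rule set no condition on these steps, but they are drawn from the same group means, and a strong response at an outer dose is one way to meet the rule. Counts of members over the steps are therefore also a description, whose balance between directions the choice of members favours.

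Seedlings of the accession Col-0 were germinated on agar and kept there for 2 weeks, and total RNA of whole seedlings, shoot and root together, was hybridised to 27 one-colour arrays. Each RNA came from 100 mg of tissue. The control medium, ATS, is a mineral nutrient medium. It was used alone, with NaCl added (at 50 mM, 75 mM, 100 mM and 125 mM) or with sorbitol added (at 100 mM, 150 mM, 200 mM and 250 mM), and each of these groups had 3 replicates. The same nutrients were thus present in all 9 groups. The sorbitol series served to separate the osmotic part of the salt response from the part due to the ions. The study describes the array replicates as biological repeats, while the labels do not say whether they came from separate cultures, and p-values measure only the spread between these samples.

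Salt in the medium acts on a seedling both as a solute that lowers water potential and as a source of sodium and chloride ions, whereas sorbitol is an uncharged sugar alcohol that lowers water potential alone. Aquaporins of the TIP group sit in the vacuolar membrane and let water into and out of the largest compartment of the plant cell. Immune genes such as PR5, the tryptophan-derived defence compound camalexin and the hormone salicylic acid are known chiefly from pathogen responses, and cytokinins are hormones of growth and nutrient status.

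Members spanned a wide range of sizes. The median of the members' mean differences from the control was -0.63 on NaCl and 0.67 on sorbitol, and among the 62 members above background on every array the most extreme means were -1.94 on NaCl (PXMT1) and 2.21 on sorbitol (WRKY30). With increasing NaCl the median difference from the control was -0.30, -0.57, -0.89 and -0.88, and with increasing sorbitol it was 0.47, 0.82, 0.67 and 0.93. With normexp background correction the same medians were nearer 0, at -0.14, -0.30, -0.40 and -0.38 on NaCl and 0.22, 0.54, 0.42 and 0.52 on sorbitol. The medians over all genes stayed between -0.03 and 0.04 in the same groups. Of the members, 70 were below the control mean at all 4 NaCl doses (24.9% of all genes), 73 were above it at all 4 sorbitol doses (30.6%), and 44 did both (1.77%). On single arrays, 40 members had all 12 NaCl arrays below all 3 control arrays (15.9% of all genes), 48 had all 12 sorbitol arrays above them (16.6%), and 19 had both (0.470%). Every sorbitol array lay above every NaCl array in 59 members (4.38%). These counts follow from the rule, which used the same values, and nothing further was read from them.

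**Figure D1:**
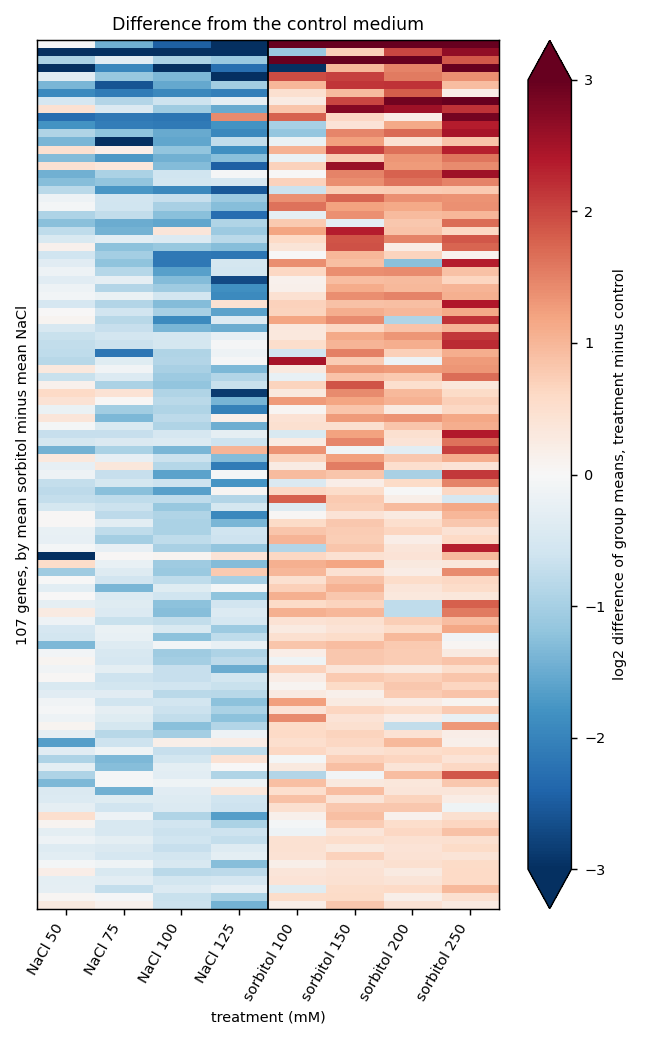
Difference from the control medium of each member (rows, ordered by mean sorbitol minus mean NaCl difference) in the 8 treatments (columns, mM), as the log2 difference of group means of 3 arrays. The NaCl side is mostly below 0 and the sorbitol side mostly above, and several rows are below 0 at 100 mM sorbitol, where 20 members were lower than the control.

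Nearest the thresholds inside the rule were AT2G44260 (-0.40 on NaCl), UMAMIT19 (-0.41) and GRP3S (-0.41), and AT3G11640 (0.40 on sorbitol), AT3G49160 (0.40) and LRX1 (0.41). Nearest outside were ZF14 (-0.39 on NaCl), AT5G23035 (-0.39) and PGSIP1 (-0.39), and AT3G11385 (0.39 on sorbitol), AT1G12411 (0.39) and IGMT2 (0.39). The 62 members above background on all 27 arrays were 57.9% of the members, against 90.7% of all genes, and 35 members (5.4% of all genes) had at least 1 group in which no array was. For a group with no such array a fold is given only as a bound, in which the mean of the bright group is set against the dim group placed at the lowest signal that was well above background on each of its arrays or at its own signal if that was higher. The 35 included members with no control array above background, such as AT1G14930, AT1G49420 and AT1G70380. Where a NaCl group of such a member was dim as well, its signal and that of the control have no order. Members lay on all 5 chromosomes (39, 13, 23, 17 and 15), and 4 pairs were within 10 protein-coding genes of each other in TAIR10.1, the closest being AT1G26400 with AT1G26420 and AT1G14930 with AT1G14960. Of the 29 further probes of members that were above background, 27 had the same signs as the probe used and 16 passed both thresholds.

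Arrays differed both between and within groups. Between 70.1 and 80.8% of probes were well above background per array. Before normalization, the 75th percentile of signal was 3070 to 3303 on the control arrays and 5362 to 6002 at 50 mM NaCl on the same slides. After it, the lowest log2 signal well above background averaged 4.92 in the control and 4.25 at 50 mM NaCl. All differences were taken from the control, and the part of this in the members' differences was not tested. The arrays lay on 7 slides of up to 4, and 4 pairs of groups had the same slides: control with 50 mM NaCl, 75 with 100 mM NaCl, 125 mM NaCl with 100 mM sorbitol, and 150 with 200 mM sorbitol. Within shared slides, and again on values that the rule used, 74 members were lower at 50 mM NaCl than in the control on both slides (37.7% of all genes) and 98 were higher at 100 mM sorbitol than at 125 mM NaCl on both (48.6%). The first replicates of 150 and 200 mM sorbitol, which shared a slide, stood apart from the other replicates: the median absolute distance over all genes was 0.112 and 0.118, against 0.0316 to 0.0588 in the other groups. Without these 2 arrays 96 genes remained members and 11 did not, and the rule found 103 genes in all.

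The 16 root hair markers measured (expansins, root hair regulators and wall proteins) had a summed level of 36.7% of the control at 125 mM NaCl and 61.2% at 250 mM sorbitol, while that of 24 shoot markers stayed between 92.9 and 101% in all treatments. The summed levels of other root lists did not move together at 125 mM NaCl. There 10 Casparian strip genes summed to 65.6% of the control, 12 suberin genes to 110% and 10 other root markers to 133%. The median log2 difference of the genes from the control was -0.82 for Casparian strip, -0.07 for suberin and -0.19 for other root markers. Below the control mean were 9 of 10, 7 of 12 and 5 of 10 genes. The median suberin gene and the median other root marker thus did not rise with the sum of their list. All genes of these lists were above background in every group. In RNA of whole seedlings, fewer cells of a type and less RNA per cell cannot be told apart, and the part of these shifts in the members' levels was not tested.

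Dose comparisons were made by limma on all 27 arrays, and a call is a Benjamini-Hochberg adjusted p under 0.01 over the 21509 genes. From 50 to 125 mM NaCl, 55 members fell and 17 rose, where 40.5% of all genes fell and 27.4% rose. From 100 to 250 mM sorbitol, 55 rose and 15 fell, where 31.9% of all genes rose and 25.7% fell. The median log2 difference of the members was -0.40 in the NaCl comparison (-0.08 over all genes) and 0.50 in the sorbitol comparison (0.04), and with normexp background correction it was -0.20 and 0.29. Counted in either direction, 72 members were past the threshold for NaCl (67.9% of all genes) and 70 for sorbitol (57.6%), so that being past it at all was common in this series. In none of the 4 dose comparisons made within an agent were 14 members past the threshold, and only 2 of these 14 were above background on all 27 arrays.

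In these 2 comparisons 34 members both fell with NaCl and rose with sorbitol, where 14.0% of all genes did, and 27 of the 34 were above background on all 27 arrays. The difference between the NaCl step and the sorbitol step was itself past the threshold for 75 members (65.2% of all genes), with the NaCl step the lower one in 66 (40.9% of all genes) and the higher one in 9 (24.3%). The outer doses of an agent shared no slide, and slide and dose cannot be told apart there. The arrays of 125 mM NaCl and 100 mM sorbitol did share slides, which links the 2 comparisons. A gene that read low on those slides would both fall with NaCl and rise with sorbitol. The part of this in the 34 members and in the difference between steps was not tested. The 3 arrays of 250 mM sorbitol lay on 1 slide that held no other group. The SE and p of comparisons with 250 mM thus leave out the spread of that group between slides. The inner doses did share slides. From 75 to 100 mM NaCl, 39 members fell and 11 rose (21.7 and 17.2% of all genes, 39.0% together), and 35 fell in both NaCl comparisons (19.0%). From 150 to 200 mM sorbitol the balance was the other way round, with 29 members falling and 14 rising (19.3 and 17.1% of all genes, 36.4% together), and 17 members that were lower at 200 than at 150 mM were nevertheless higher at 250 than at 100 mM (5.90%). With the replicate number as a block, which paired the 150 and 200 mM arrays, 31 fell and 13 rose.

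**Figure D2:**
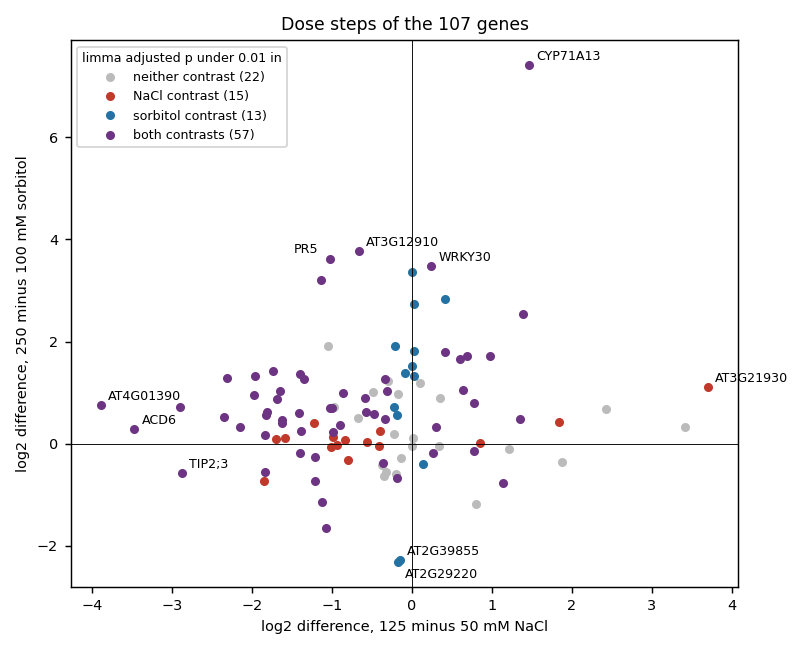
Dose steps of the members: the log2 difference between 125 and 50 mM NaCl (x axis) against that between 250 and 100 mM sorbitol (y axis), coloured by which of the 2 limma comparisons was past the threshold. Of the points, 57 passed in both comparisons, 15 in the NaCl comparison only, 13 in the sorbitol comparison only and 22 in neither, and CYP71A13 lies highest, at a signal difference of 7.41 that is known only as at least 63.2-fold because no array was above background at 100 mM sorbitol. Points are drawn at the fitted differences, groups not above background included.

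Several members have known roles in defence. PR5 encodes a thaumatin-like pathogenesis-related protein and is widely used as a marker of salicylic acid signalling. Its log2 intensity was 11.71, 11.66 and 11.65 on the 3 control arrays, 10.81, 10.75 and 10.75 at 50 mM NaCl, 10.47, 10.46 and 10.46 at 75 mM, 10.17, 10.17 and 10.15 at 100 mM and 9.77, 9.79 and 9.68 at 125 mM. On sorbitol it was 10.55, 10.52 and 10.49 at 100 mM, 13.08, 13.13 and 13.17 at 150 mM, 13.33, 13.43 and 13.38 at 200 mM and 14.12, 14.15 and 14.16 at 250 mM. All NaCl arrays and the lowest sorbitol dose lay below the control arrays and the 3 higher sorbitol doses above them, with no overlap. From 50 to 125 mM NaCl PR5 fell by 1.03 (SE 0.0309, adjusted p = 3.35e-17) on the log2 scale, and from 100 to 250 mM sorbitol it rose by 3.63 (SE 0.0309, adjusted p = 2.17e-25).

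CYP71A13 encodes a cytochrome P450 of camalexin synthesis. Its control arrays read 6.59, 6.64 and 6.66, and no array was above background at 50 mM NaCl, at 100 mM NaCl or at 100 mM sorbitol. At 75 mM NaCl it read 4.84, 4.76 and 4.41, at 125 mM 3.94, 4.67 and 4.51 with 2 arrays above background, and on sorbitol 7.35, 7.75 and 7.74 at 150 mM, 7.93, 8.22 and 8.21 at 200 mM and 10.14, 10.17 and 10.14 at 250 mM. The level was thus at least 5.22-fold lower than the control at 50 mM NaCl, at least 5.67-fold lower at 100 mM NaCl and at least 5.52-fold lower at 100 mM sorbitol. Between 100 and 250 mM sorbitol it rose at least 63.2-fold (adjusted p = 2.13e-16), the largest rise of a member in this comparison. The neighbouring paralogue CYP71A12, which is no member, was also below the control at each NaCl dose but did not exceed it on sorbitol, with differences of -4.30 at 50 mM NaCl and -0.10 at 250 mM sorbitol. Whether the probes tell the transcripts of these close paralogues apart was not tested.

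WRKY30, AT3G12910 and PXMT1 climbed with sorbitol in a similar way. WRKY30, a WRKY-family transcription factor, read 6.54, 6.72 and 6.62 in the control, 5.70 to 6.39 over the 12 NaCl arrays and 6.79, 6.86 and 6.95 at 100 mM, 8.65, 8.63 and 8.63 at 150 mM, 9.49, 9.49 and 9.58 at 200 mM and 10.36, 10.34 and 10.33 at 250 mM of sorbitol. AT3G12910, annotated as a transcription factor, read 6.15, 6.09 and 6.05 in the control, was above background on none of the 12 NaCl arrays and rose from 4.77, 5.08 and 5.13 at 100 mM sorbitol to 8.79, 8.73 and 8.75 at 250 mM. PXMT1, named as a paraxanthine methyltransferase, read 9.51, 9.46 and 9.48 in the control, 7.30 to 7.75 on NaCl and 8.54, 8.49 and 8.44 at 100 mM, 9.90, 9.91 and 9.85 at 150 mM, 10.62, 10.62 and 10.60 at 200 mM and 11.87, 11.82 and 11.86 at 250 mM on sorbitol. In all 3 genes the 3 higher sorbitol doses lay above every control array and the NaCl arrays below. From 100 to 250 mM sorbitol WRKY30 rose by 3.48 (SE 0.0496, adjusted p = 4.42e-22), AT3G12910 by 3.76 (SE 0.19, adjusted p = 3.66e-13) and PXMT1 by 3.36 (SE 0.0389, adjusted p = 2.36e-23). With NaCl dose WRKY30 rose by 0.24 (SE 0.0496, adjusted p = 0.000211), which the mean of all its probes did not repeat at 0.04 (adjusted p = 0.761), while PXMT1, at -0.01 (SE 0.0389, adjusted p = 0.91), did not pass the threshold. AT3G12910 was at least 4.93-fold lower than the control at 75 mM NaCl and at least 4.56-fold lower at 125 mM.

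ABCG40, an ABC transporter of the plasma membrane that takes up abscisic acid, also rose between the outer sorbitol doses (it was chosen after its values were seen). It was -0.88 relative to the control at 100 mM sorbitol and 2.33 at 250 mM, a rise of 3.21 (SE 0.0713, adjusted p = 4.05e-19). Its course was not a steady climb in the fit without the first replicates of 150 and 200 mM sorbitol, an alternative chosen after seeing the data. There the difference of 200 from 150 mM was -0.46 (adjusted p = 8.55e-05). For ABCG40 these first replicates lay -0.19 and -0.15 from the mean of the other replicates at their dose. From 50 to 125 mM NaCl ABCG40 fell by 1.13 (SE 0.0713, adjusted p = 8.57e-12).

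**Figure D3:**
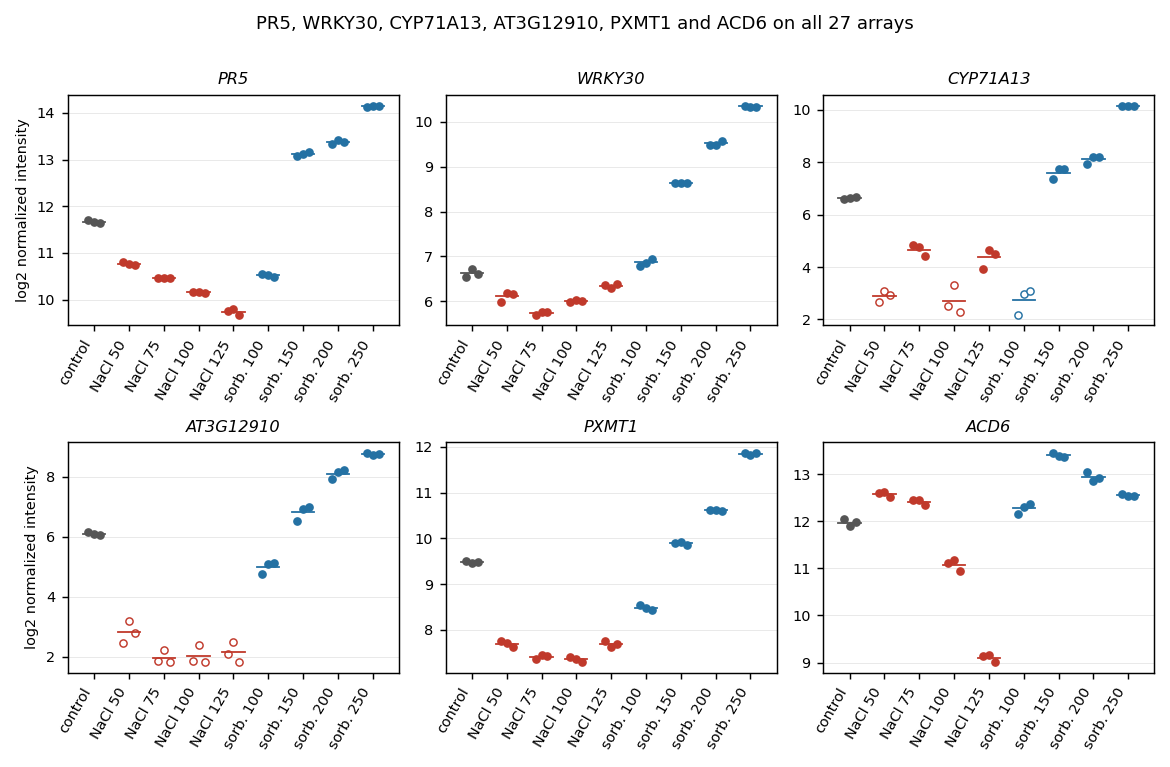
Log2 normalized intensity of 6 genes on all 27 arrays, by medium (NaCl and sorbitol in mM): points are arrays, lines are group means, and open points mark groups in which no array was well above background. PR5, CYP71A13, AT3G12910 and PXMT1 dip below the control at 100 mM sorbitol and exceed it from 150 mM, whereas ACD6 peaks at 150 mM sorbitol and is lowest at 125 mM NaCl.

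ACD6, an ankyrin-repeat membrane protein that promotes salicylic acid signalling, had another shape. It read 12.04, 11.90 and 11.98 in the control, 12.59, 12.62 and 12.51 at 50 mM NaCl, 12.44, 12.45 and 12.35 at 75 mM, 11.11, 11.17 and 10.95 at 100 mM and 9.14, 9.15 and 9.01 at 125 mM. On sorbitol it read 12.16, 12.30 and 12.37 at 100 mM, 13.45, 13.38 and 13.36 at 150 mM, 13.05, 12.86 and 12.91 at 200 mM and 12.58, 12.54 and 12.54 at 250 mM. The 2 lower NaCl doses lay above the control and the 2 higher ones below it. From 50 to 125 mM NaCl ACD6 fell by 3.47 (SE 0.0615, adjusted p = 5.47e-21), and from 100 to 250 mM sorbitol it rose by 0.28 (SE 0.0615, adjusted p = 0.000479), a call that was lost with slide as a random block, at a similar difference of 0.31 (adjusted p = 0.0109), and with a line fitted over the 4 doses, whose change over the dose range was 0.11 (adjusted p = 0.0944). The cysteine-rich receptor-like kinase CRK4, a member of a family linked to immune and stress signalling, fell by 1.84 (SE 0.0374, adjusted p = 5.41e-20) from 50 to 125 mM NaCl and was highest at 150 mM sorbitol (difference from the control 1.55), while its relative CRK31 lay between -1.71 and -1.26 at all NaCl doses and rose with sorbitol by 1.81 (SE 0.131, adjusted p = 1.44e-10).

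In a list of 13 salicylic acid and immune genes, drawn up after the members were known, only PR5 and ACD6 were members. The pathogenesis-related genes PR1 and PR2, named after their values were seen, had means above the control in every treatment, PR2 by 2.41 at 50 mM NaCl and 3.99 at 250 mM sorbitol and PR1 by as little as 0.06 at 125 mM NaCl. From 100 to 250 mM sorbitol 9 of the 13 rose and 1 fell, and from 50 to 125 mM NaCl 4 rose and 6 fell. Between 150 and 200 mM sorbitol, on shared slides, the balance was the other way round, with 1 rising and 11 falling. Of 30 measured cysteine-rich receptor-like kinases, CRK4 and CRK31 were the 2 members, 24 rose and 2 fell from 100 to 250 mM sorbitol, and 12 rose and 6 fell from 50 to 125 mM NaCl. Between 150 and 200 mM sorbitol 1 of the 30 rose and 15 fell. Of the 30, 22 had a mean sorbitol difference above 0, and only 4 of them had a mean NaCl difference below 0. CRK23, for example, was above the control at every dose (2.54 at 75 mM NaCl, 4.35 at 250 mM sorbitol). Of the 6 camalexin genes, 5 rose between the outer sorbitol doses and 4 between the outer NaCl doses, and none fell in either comparison. From 150 to 200 mM sorbitol 2 of the 6 rose and 0 fell. Over all genes 31.9% rose and 25.7% fell between the outer sorbitol doses, and 27.4% rose and 40.5% fell between the outer NaCl doses. From 150 to 200 mM sorbitol 17.1% of all genes rose and 19.3% fell.

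Of the 33 measured aquaporins, TIP2;3 and TIP2;2 were members. Both are water channels of the vacuolar membrane. TIP2;3, which was also on the list of root markers, read 12.17, 12.11 and 12.10 in the control and 11.75, 11.88 and 11.79 at 50 mM, 10.97, 10.99 and 11.00 at 75 mM, 10.69, 10.81 and 10.80 at 100 mM and 8.92, 8.88 and 8.99 at 125 mM of NaCl. It read 14.05, 14.07 and 14.13 at 100 mM, 14.18, 14.23 and 14.16 at 150 mM, 13.76, 13.70 and 13.62 at 200 mM and 13.53, 13.52 and 13.47 at 250 mM of sorbitol. Each of the 12 NaCl arrays was below, and each of the 12 sorbitol arrays above, all 3 control arrays. TIP2;2 was flat at the lowest salt dose, with 15.48, 15.52 and 15.52 in the control and 15.51, 15.47 and 15.54 at 50 mM NaCl, and read 14.23, 14.33 and 14.33 at 125 mM NaCl, 16.58, 16.56 and 16.61 at 100 mM sorbitol and 15.83, 15.87 and 15.84 at 250 mM. Its 50 mM NaCl arrays overlapped the control, and its sorbitol arrays were all above it.

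Both genes fell with dose of both agents, and on sorbitol they were highest at 100 or 150 mM. TIP2;3 changed by -2.88 (SE 0.0412, adjusted p = 2.32e-22) from 50 to 125 mM NaCl and by -0.58 (SE 0.0412, adjusted p = 1.15e-10) from 100 to 250 mM sorbitol. TIP2;2 changed by -1.21 (SE 0.0375, adjusted p = 5.3e-17) and -0.74 (SE 0.0375, adjusted p = 4.4e-13). On the shared slides of 150 and 200 mM sorbitol they changed by -0.50 (SE 0.0412, adjusted p = 3.22e-09) and -0.48 (SE 0.0375, adjusted p = 1.36e-09). The third gene of the subgroup, TIP2;1, was no member and went from 0.14 at 100 mM to -0.79 at 250 mM sorbitol relative to the control. Among the 33 aquaporins, 14 fell and 6 rose with NaCl dose and 18 fell and 4 rose with sorbitol dose. Over all genes 40.5% fell and 27.4% rose with NaCl, and 25.7% fell and 31.9% rose with sorbitol. The falls of aquaporins with NaCl were thus near the share of all genes. PIP2;4, a plasma membrane water channel, was -2.01 at 125 mM NaCl but reached only 0.51 on sorbitol, at 150 mM, and NIP5;1, a boric acid channel, was 2.95 at 250 mM sorbitol and no lower than -0.22 on NaCl.

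**Figure D4:**
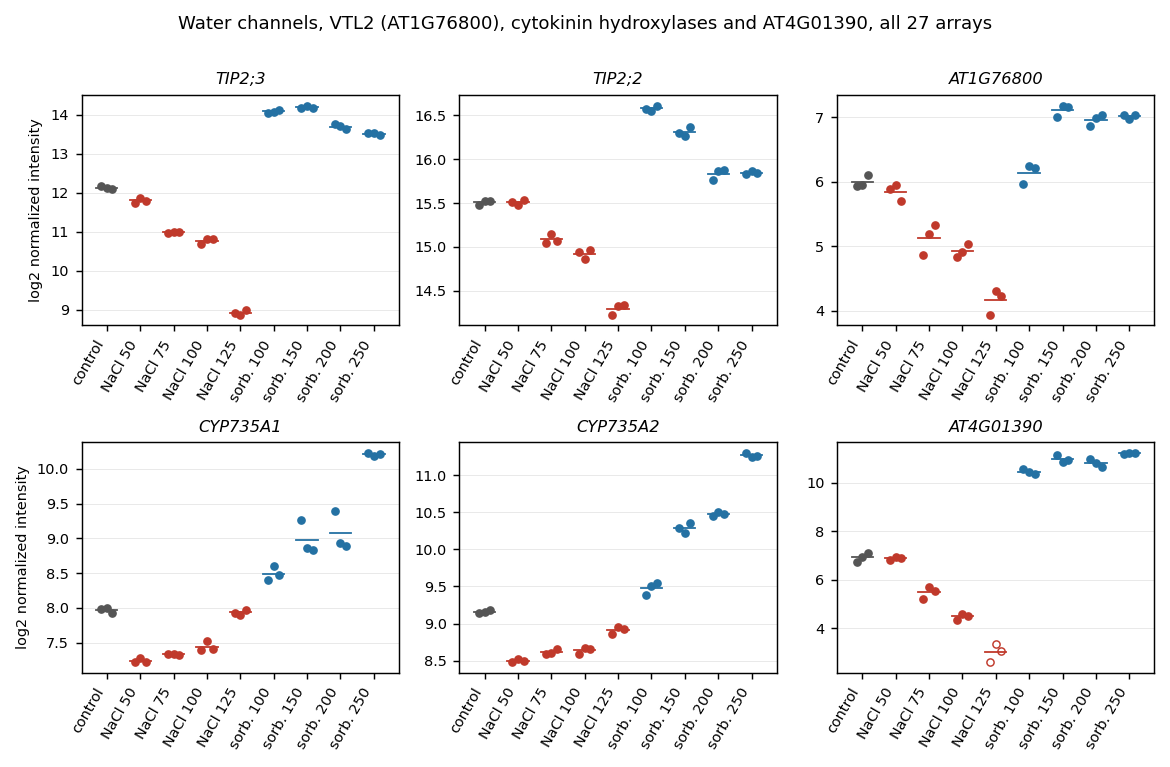
Log2 normalized intensity of TIP2;3, TIP2;2, AT1G76800 (VTL2), CYP735A1, CYP735A2 and AT4G01390 on all 27 arrays, by medium (NaCl and sorbitol in mM): points are arrays, lines are group means, and open points mark groups with no array well above background. The water channels fall with dose of either agent, whereas the CYP735A genes rise with sorbitol and have their lowest NaCl arrays at the lower salt doses.

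Both Arabidopsis cytokinin hydroxylases, the cytochrome P450 enzymes that make the precursors of trans-zeatin, were members. CYP735A1 read 7.99, 8.00 and 7.93 in the control, 7.23, 7.28 and 7.22 at 50 mM, 7.34, 7.34 and 7.32 at 75 mM, 7.40, 7.53 and 7.41 at 100 mM and 7.92, 7.90 and 7.98 at 125 mM of NaCl, and 8.40, 8.61 and 8.47 at 100 mM, 9.27, 8.86 and 8.83 at 150 mM, 9.39, 8.94 and 8.90 at 200 mM and 10.23, 10.19 and 10.21 at 250 mM of sorbitol. CYP735A2 read 9.14, 9.15 and 9.18 in the control, 8.48, 8.53 and 8.49 at 50 mM, 8.59, 8.61 and 8.65 at 75 mM, 8.58, 8.67 and 8.66 at 100 mM and 8.86, 8.95 and 8.93 at 125 mM of NaCl, and 9.39, 9.51 and 9.55 at 100 mM, 10.29, 10.23 and 10.35 at 150 mM, 10.45, 10.50 and 10.48 at 200 mM and 11.30, 11.25 and 11.25 at 250 mM of sorbitol. The pair was lowest at 50 to 100 mM NaCl, was nearer the control at 125 mM, and was above it on every sorbitol array. The 125 mM NaCl arrays of CYP735A1 overlapped the control and those of CYP735A2 did not. Both genes rose with dose of both agents, CYP735A1 by 0.69 (SE 0.104, adjusted p = 4.5e-06) with NaCl and 1.72 (SE 0.104, adjusted p = 7.12e-12) with sorbitol, and CYP735A2 by 0.41 (SE 0.0383, adjusted p = 5.03e-09) and 1.79 (SE 0.0383, adjusted p = 2.25e-19). Of 22 measured genes of cytokinin synthesis and breakdown, a list made after the members were known, these were the only members. IPT7, an isopentenyl transferase, was above the control in every treatment (1.22 at 50 mM NaCl, 2.23 at 250 mM sorbitol), and the cytokinin oxidase CKX1 was below it in every treatment (-2.07 at 125 mM NaCl, -1.99 at 250 mM sorbitol).

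Other transport genes included 2 of the 4 measured vacuolar iron transporter-like genes. AT1G76800 (VTL2), chosen after its values were seen, read 5.93, 5.96 and 6.10 in the control, 3.94, 4.31 and 4.23 at 125 mM NaCl and 7.01, 7.18 and 7.17 at 150 mM sorbitol, and changed by -1.68 (SE 0.109, adjusted p = 1.3e-11) with NaCl dose and 0.88 (SE 0.109, adjusted p = 4.95e-07) with sorbitol dose. AT3G25190 (VTL5), chosen likewise, read 12.87, 12.86 and 12.79 in the control, 12.32, 12.16 and 12.18 at 125 mM NaCl, 13.38, 13.32 and 13.29 at 100 mM sorbitol and 10.59, 13.65 and 13.88 at 250 mM. The first array of 250 mM sorbitol lay far below the other 2, and none of its dose comparisons passed the threshold with all arrays. Without that array AT3G25190 rose with sorbitol by 0.43 (adjusted p = 2.47e-06) in place of -0.62 (SE 0.48, adjusted p = 0.262), and with NaCl it fell by 0.35 (adjusted p = 5.17e-06). None of the 21 iron uptake genes, 28 nitrogen genes or 22 sodium, potassium and chloride transport genes measured was a member. The sulfate transporter SULTR3;1, also chosen after its values were seen, read 9.89, 9.84 and 9.82 in the control, 8.41, 8.31 and 8.35 at 125 mM NaCl and 10.62, 10.50 and 10.51 at 100 mM sorbitol, and from 50 to 125 mM NaCl it fell by 1.4 (SE 0.0366, adjusted p = 3.19e-18).

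By the signals as read, dim groups included, the member with the widest gap between the agents was AT4G01390, a gene with no name in the annotation used here. It read 6.75, 6.95 and 7.12 in the control, 6.82, 6.95 and 6.92 at 50 mM NaCl, 5.22, 5.71 and 5.54 at 75 mM and 4.36, 4.60 and 4.52 at 100 mM, where 2 arrays were above background, and no array was above it at 125 mM. On sorbitol it read 10.55, 10.46 and 10.37 at 100 mM, 11.15, 10.84 and 10.96 at 150 mM, 10.99, 10.81 and 10.64 at 200 mM and 11.20, 11.22 and 11.24 at 250 mM. The lowest sorbitol dose was already 3.52 above the control, and the NaCl arrays overlapped the control at 50 mM and were lower with each further dose. The level at 125 mM NaCl was at least 8.18-fold below the control and at least 7.93-fold below 50 mM NaCl (adjusted p = 2.27e-15).

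AT2G29220 (LecRK-III.1), a lectin receptor kinase, was above background on none of the control and NaCl arrays but on all 12 sorbitol arrays. It read 7.10, 7.22 and 7.32 at 100 mM sorbitol, 6.87, 7.13 and 7.24 at 150 mM, 6.91, 7.10 and 7.16 at 200 mM and 4.91, 4.95 and 4.86 at 250 mM. It was at least 4.93-fold above the control at 100 mM and fell by 2.31 (SE 0.327, adjusted p = 2.97e-06) from 100 to 250 mM. Because neither the control nor the NaCl groups rose above background, its NaCl difference rested on signals that have no order.

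The remaining members of the 12 with the widest gap were AT1G58320, AT3G55790, AT5G62330 and AT3G21930, none with a named function here. AT5G62330 fell at least 2.9-fold from 50 to 125 mM NaCl (adjusted p = 3.24e-10) and rose by 1.33 (SE 0.154, adjusted p = 1.76e-07) from 100 to 250 mM sorbitol. AT3G21930 read 3.40, 5.81 and 3.48 in the control, with 1 array above background. From 50 to 100 mM NaCl it was above background on no array. At 125 mM it was above it on all 3, at least 2.63-fold higher than at 50 mM (adjusted p = 8.54e-05). Its mean of 5.64 at 125 mM NaCl also lay above the control mean of 4.23, so that its lower mean on NaCl rested on the dim groups. AT1G58320 was at least 3.24-fold below the control at 75 mM NaCl and read 7.63, 7.73 and 7.63 at 200 mM sorbitol against 5.34, 5.57 and 5.56 in the control. AT3G55790 was above background only at 100, 150 and 200 mM sorbitol, so that its NaCl difference rested on signals that have no order. Neither passed the threshold in the comparisons of outer doses. Among the other extremes of these comparisons, with NaCl AT5G59670 fell by 2.90 (SE 0.0435, adjusted p = 4.39e-22), with sorbitol AT1G18830 fell by 1.64 (SE 0.141, adjusted p = 2.08e-09), AT2G39855 was at least 1.58-fold lower at 250 than at 100 mM sorbitol, and AT5G37470 was at least 1.45-fold higher at 125 than at 50 mM NaCl. The call of AT5G37470 was lost without the first replicate of 50 mM NaCl, at a fitted difference of 1.44 (adjusted p = 0.0152) in place of 1.84 (SE 0.473, adjusted p = 0.00159), both against a group not above background.

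The other members with known roles were chosen after their values were seen and are given by role. Among regulators, RRTF1, a redox-responsive transcription factor of the ethylene response factor family, read 5.43, 5.96 and 5.92 in the control, 4.42, 4.67 and 4.39 at 125 mM NaCl, 7.64, 7.77 and 7.61 at 150 mM sorbitol, 5.97, 5.96 and 6.03 at 200 mM and 7.49, 7.56 and 7.53 at 250 mM, so that it was high at 150 and 250 mM sorbitol and near the control at 200 mM. From 50 to 125 mM NaCl it fell by 1.4 (SE 0.128, adjusted p = 3.53e-09), and from 150 to 200 mM sorbitol it fell by 1.69 (SE 0.128, adjusted p = 7.81e-10). CPK16, a calcium-dependent protein kinase, was 0.51 relative to the control at 50 mM NaCl and -1.65 at 125 mM, and between these doses it fell by 2.15 (SE 0.105, adjusted p = 1.21e-13). The heat shock factor AT-HSFA7B was above background on all sorbitol arrays but on none of the control arrays and on 1 of the 12 NaCl arrays.

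Among enzymes, G6PD4, a glucose-6-phosphate dehydrogenase, read 9.02, 9.09 and 9.07 in the control, 8.59, 8.54 and 8.58 at 50 mM, 8.38, 8.34 and 8.37 at 75 mM, 7.73, 7.66 and 7.69 at 100 mM and 7.59, 7.57 and 7.55 at 125 mM of NaCl, and 9.39, 9.32 and 9.44 at 100 mM, 9.59, 9.78 and 9.71 at 150 mM, 9.80, 10.01 and 9.94 at 200 mM and 10.07, 10.08 and 10.08 at 250 mM of sorbitol. Every NaCl array was below and every sorbitol array above the control arrays, and the distance widened with dose on both sides. From 50 to 125 mM NaCl G6PD4 fell by 1.00 (SE 0.0459, adjusted p = 3.9e-14), and from 100 to 250 mM sorbitol it rose by 0.69 (SE 0.0459, adjusted p = 3.55e-11). SBE2.1, a starch branching enzyme, had a smaller and flat sorbitol side, from 0.45 to 0.53 relative to the control, and with NaCl dose it fell by 0.57 (SE 0.0385, adjusted p = 3.12e-11). HO3, a heme oxygenase of the pathway to the phytochrome chromophore, was above background on no array at 125 mM NaCl, at least 4.33-fold below the control. The glutathione transferases GSTF3 and GSTU14 were the 2 members among 45 measured, and with NaCl dose GSTF3 rose by 0.98 (SE 0.241, adjusted p = 0.0011) whereas GSTU14 fell by 0.84 (SE 0.0503, adjusted p = 3.82e-12). XERO1, a dehydrin, ran against the general direction with sorbitol dose, where it fell by 0.39 (SE 0.0866, adjusted p = 0.000496), and its lowest NaCl level was -1.01 relative to the control, at 100 mM.

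MLP328 and MLP34, of the major latex protein-like family, and AT1G14960, annotated as related to it, shared a minimum at 75 mM NaCl (chosen after their values were seen). MLP328 read 14.72, 14.77 and 14.73 in the control, 13.40, 13.41 and 13.32 at 75 mM NaCl, 14.38, 14.37 and 14.41 at 100 mM and 15.71, 15.83 and 15.83 at 150 mM sorbitol. MLP34 read 15.67, 15.65 and 15.63 in the control, 14.38, 14.35 and 14.38 at 75 mM NaCl, 15.40, 15.35 and 15.35 at 100 mM and 16.58, 16.46 and 16.63 at 150 mM sorbitol. Both genes lay below the control at 75 and 100 mM NaCl and above it at 150 mM sorbitol, with no overlap. From 75 to 100 mM NaCl, on shared slides, MLP328 rose by 1.01 (SE 0.0445, adjusted p = 1.48e-13), MLP34 by 1.00 (SE 0.0332, adjusted p = 1.59e-15) and AT1G14960 by 2.27 (SE 0.0267, adjusted p = 1.36e-22). Of the 9 measured MLP-like genes, a list made after the members were known, 6 rose and 0 fell in this comparison, beside 17.2% rising and 21.7% falling over all genes, but only MLP328 and MLP34 were members, and MLP168 was above the control in every treatment (1.09 at 50 mM NaCl). The MLP genes include close copies, and whether the probes tell them apart was not tested.

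LRX1, an extensin-like wall protein of root hairs, was the only root hair marker among the members. It read 8.32, 7.95 and 8.19 in the control, 8.42, 8.20 and 8.12 at 50 mM, 7.56, 7.54 and 7.80 at 75 mM, 6.83, 6.82 and 7.03 at 100 mM and 7.42, 7.07 and 7.34 at 125 mM of NaCl, and 9.15, 8.70 and 8.36 at 100 mM, 9.74, 8.06 and 8.12 at 150 mM, 8.47, 6.93 and 6.85 at 200 mM and 9.33, 9.46 and 9.54 at 250 mM of sorbitol. The first replicates of 150 and 200 mM were 1.65 and 1.58 above the mean of the other 2. Without them the mean sorbitol difference was 0.14 in place of 0.41, below the threshold. With all arrays no comparison between doses of 1 agent passed the threshold for LRX1, the nearest being 150 to 200 mM sorbitol at -1.22 (SE 0.373, adjusted p = 0.0106). Without the 2 arrays the same comparison gave -1.20 (adjusted p = 3.05e-05), and the others passed as well. They gave -0.97 from 50 to 125 mM NaCl (adjusted p = 1.03e-05), -0.74 from 75 to 100 mM NaCl (adjusted p = 0.000395) and 0.71 from 100 to 250 mM sorbitol (adjusted p = 0.000374). The difference between its NaCl and sorbitol steps passed with all arrays, at -1.68 (adjusted p = 0.0074), but it was lost when any 1 of 11 of the 12 arrays at these doses was left out (adjusted p from 0.0103 to 0.0229), the exception being the first array of 100 mM sorbitol. In the 16 root hair markers as a list, 14 fell and 0 rose from 150 to 200 mM sorbitol and 15 fell and 0 rose from 50 to 125 mM NaCl, beside 19.3 and 40.5% falling over all genes.

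**Figure D5:**
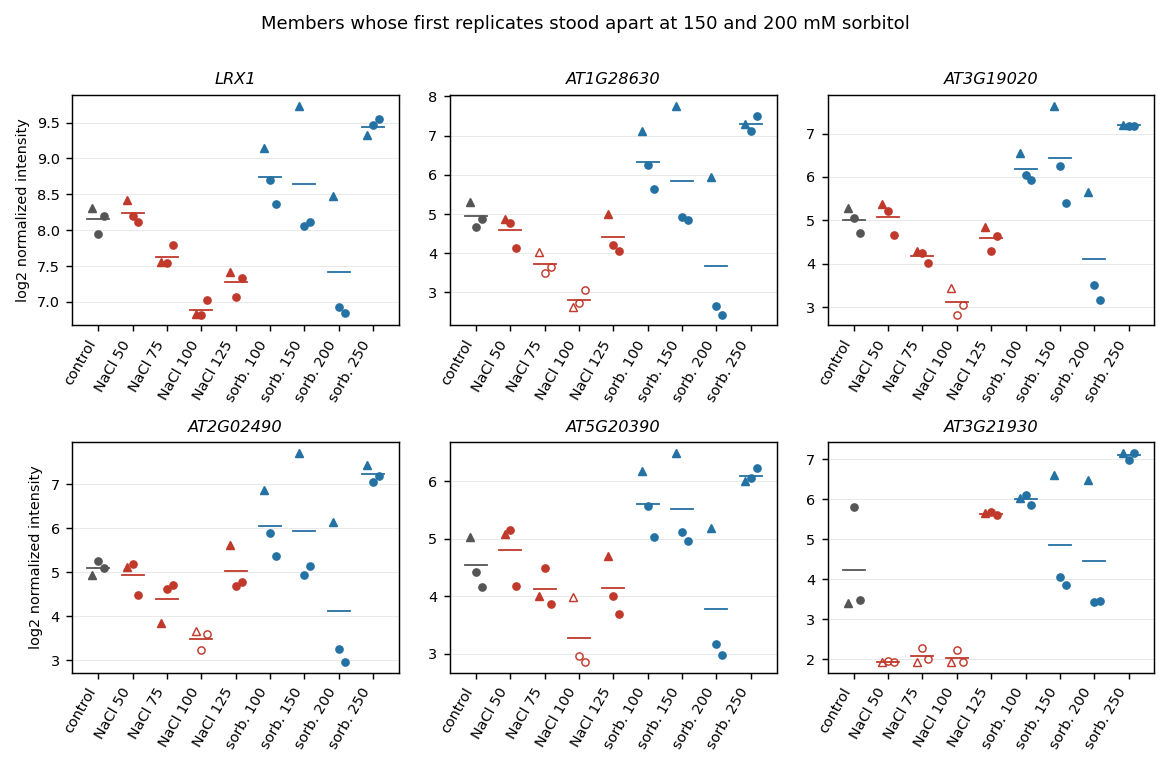
Log2 normalized intensity of 6 members on all 27 arrays, by medium (NaCl and sorbitol in mM): triangles are first replicates, circles the others, lines group means, and open symbols mark groups with no array well above background. At 150 and 200 mM sorbitol the triangles lie 1.46 to 3.40 above the mean of the circles in all 6 genes.

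The first replicates of 150 and 200 mM sorbitol were both at least 0.5 above the other replicates in 13 members, compared with 2.19% of all genes. Besides LRX1 and AT3G21930 these were AT1G26400, AT1G28630, AT1G59453, AT1G62190, AT2G02490, AT3G19020, AT3G19690, AT4G11310, AT5G20390, AT5G37470 and GSTF3. Of these 13, 6, namely LRX1, AT1G26400, AT1G28630, AT1G59453, AT1G62190 and AT2G02490, fell below the sorbitol threshold without these arrays, as did 5 other members that moved to between 0.39 and 0.40. AT3G19020 stayed a member, with a mean sorbitol difference of 0.62 in place of 0.97, and from 150 to 200 mM sorbitol it fell by 2.32 (SE 0.498, adjusted p = 0.000652) with all arrays. Without these first replicates it fell by 2.48 (adjusted p = 1.18e-06). For the probe used, 1 control array and no array of 100 mM NaCl was above background. Another probe of AT3G19020, above background in at least 1 group, did not show the pattern, with mean differences of 0.01 on NaCl and 0.13 on sorbitol.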

How the data were processed

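The deposited values were one-colour Agilent intensities of 27 arrays, read by the authors with Agilent Feature Extraction 10.7 per the submitters' processing notes. The deposited value table was identical to quantile-normalized processed signal from the scanner files, and its log2 was used here. The deposited flags on each spot (score of 0 or 1) gave which probes were well above background. Of 35725 spots with a transcript accession, 34369 matched 1 gene of TAIR10.1, giving 25383 genes. Each gene was represented by the probe with the highest mean, and the 21509 genes with at least 1 group whose 3 arrays were all above background were tested. No spot was saturated. The number of arrays limits the precision.

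The groups came from the labels. The rule gave 107 members. Members and gene lists were chosen with earlier results of these data known, and the lists of immune, camalexin, cytokinin synthesis and breakdown, cysteine-rich receptor-like kinase, MLP-like and vacuolar iron transporter-like genes were added after the members had been seen. Dose comparisons used limma 3.58.1 in R 4.3.3 on 9 group means, two-sided, with Benjamini-Hochberg adjustment over all genes and a threshold of 0.01. The procedure was tested on simulated data with independent noise on each array. That test does not cover spread shared by arrays of a slide or by paired replicates. Genes were named by rule: the 12 members with the widest gap between agents, members in the lists of markers and transport genes, the 3 largest rises and falls past the threshold in each outer dose comparison (both rankings by the fitted values, dim groups included), the 3 genes on each side of each threshold, and members of the P450 list. All other genes named, including those of lists that were no members, were chosen after their values were seen. Replicate numbers of 150 and 200 mM sorbitol paired the arrays (correlations of deviations 0.488, 0.138 and 0.230), where replicate 1 shared a slide and replicates 2 and 3 another. Alternatives were another scaling, normexp background correction, masked outlier spots, other filters and probe summaries, blocks for replicate and slide, other thresholds, a slope over dose and each array left out. A search of promoters for motifs that had been planned was not run here.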

Additional observations from a re-analysis of the deposited data

Results flagged for a closer look

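Limma's test of the difference between the NaCl step (125 against 50 mM) and the sorbitol step (250 against 100 mM) was past the threshold in 70.1% of the members, close to the 65.2% of all genes. The NaCl step was the lower one in 66 members and the higher one in 9, beside 40.9 and 24.3% of all genes, a balance that the choice of members favours. Slide and dose cannot be told apart in this difference, since the outer doses of an agent shared no slide. The arrays of 125 mM NaCl and 100 mM sorbitol did share slides, and both groups enter the difference with the same sign.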

How the results depend on the processing

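The number of genes that met the rule depended on the processing. It was 37 with normexp background correction (36 of them members), 195 with a threshold of 0.3 and 64 with a threshold of 0.5 in place of 0.4, and 62 when only genes above background on all 27 arrays were kept, an alternative chosen after seeing the data. It was 123 with 75th percentile scaling (96 of them members), and leaving out 1 array at a time gave 97 to 113. The counts of members past the threshold in the dose comparisons moved by less than 1.5 times under every alternative run. Leaving out 1 array at a time gave 68 to 75 for the outer NaCl doses, 64 to 71 for the outer sorbitol doses, 45 to 52 for 75 and 100 mM NaCl, 37 to 45 for 150 and 200 mM sorbitol, and 72 to 78 for the difference between steps. With the replicate number as a block the counts were 73, 71, 52, 44 and 78, against 72, 70, 50, 43 and 75 without it, and no call of a named gene was lost. Same-numbered arrays of 75 and 100 mM NaCl did not deviate together (correlations 0.0290, 0.0301 and -0.00559). With slide as a random block (correlation within slides 0.5145) the counts were 70, 57, 58, 53 and 69. Of 70 values of named genes, 9 calls were lost with normexp and 3 with 75th percentile scaling. The direction turned for WRKY30 from 75 to 100 mM NaCl with the mean of all probes (-0.0221, adjusted p = 0.900) and for CRK4 with sorbitol as a line fitted over the 4 doses (-0.155 over the dose range), and the cause was not tested. A fixed slide block could not be fitted for the rule, the outer doses or the difference between steps. Probes near background limit 45 of the members, which were not above it on every array.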
